A study of Mus musculus with 18 samples.

Results

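The genes described are the Toll-like receptors other than TLR4 that the count files list under their symbols, Tlr1, Tlr2, Tlr3, Tlr5, Tlr6, Tlr7, Tlr8, Tlr9 and Tlr13, together with Unc93b1, which escorts receptors to endosomes. They were chosen by name, as 10 of the 22852 gene rows, and all 10 passed the expression filter that left 11305 genes tested. RNA-Seq libraries were made from bone marrow-derived macrophages (BMDMs) of wild-type C57BL/6 mice, female per the study's methods, grown in medium conditioned by L929 cells. There were 3 biological replicates in each of 6 groups. Unstimulated BMDMs (labelled Unstim) received nothing. LPS-stimulated BMDMs (LPS10) received LPS at 10 ng/ml only, for 3 h per the study's scheme. LPS-primed BMDMs (LPS100) received 100 ng/ml for 24 h. LPS-tolerant BMDMs (Tol) received 100 ng/ml for 24 h and then fresh medium with 10 ng/ml for 3 h. In the groups labelled LPS100_Carbo25 and Tol_Carbo25, carboplatin at 25 µM, a platinum drug that crosslinks DNA, was given before the priming dose. The age of the mice was not given in the sources used here, nor whether the replicates came from separate mice, so p values measure the spread between these samples.

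Toll-like receptors are membrane proteins that recognise microbial molecules and signal through adaptors such as MyD88 and TRIF to NF-κB and interferon regulatory factors. TLR1, TLR2, TLR5 and TLR6 act at the cell surface, where TLR2 pairs with TLR1 or TLR6 to bind bacterial lipopeptides and TLR5 binds flagellin. TLR3, TLR7, TLR8, TLR9 and TLR13 act in endosomes and recognise nucleic acids, and the membrane protein UNC93B1 carries them there from the endoplasmic reticulum. LPS itself is bound by TLR4, so the genes described here encode receptors that the stimulus is not known to engage directly.

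Depth ranged from 6869667 to 14708099 pairs assigned to genes (median 8986463 over the samples). All 8 macrophage markers were tested, and they summed to 15880 to 17830 CPM (counts scaled to a common library total) in unstimulated, 12220 to 14640 in LPS-stimulated, 26510 to 28910 in LPS-primed and 25600 to 30450 in LPS-tolerant BMDMs. Single markers moved with LPS, among them Mertk (log2FC -3.18 after 10 ng/ml, adjusted p = 1.51e-05, edgeR) and Itgam (log2FC 2.46 after priming, adjusted p = 1.07e-07). Of the B cell markers, Ms4a1, Pax5 and Ebf1 were at 0 in all unstimulated samples, but Ighm, the immunoglobulin M heavy chain, had 267, 1150 and 1697 counts there. Ly6d and Spib, markers of plasmacytoid dendritic cells, were at 0 in all 18 samples, as were Ly6g and Mpo of neutrophils. S100a8 of the neutrophil list, however, had 7 to 14 counts in unstimulated, 55 to 118 in LPS-stimulated, 71 to 409 in LPS-primed and 151 to 414 in LPS-tolerant BMDMs. Dcn of the fibroblast list had 0, 0 and 1 counts in unstimulated and 26, 47 and 59 in LPS-primed BMDMs. The others of that list stayed low. Col1a1 had 0, 0 and 3 counts in unstimulated and 0, 0 and 5 in LPS-primed BMDMs. In the LPS-primed samples Col1a2 had 0, 0 and 4 counts, Col3a1 had 0, 0 and 5, and Pdgfra had 0, 0 and 0. The part of these markers in the results was not tested. In bulk RNA, fewer cells of a type and less RNA per cell cannot be told apart.

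The receptors that dominated the family changed with LPS. To compare genes, levels were expressed per length, as CPM per kb of merged exons, and summed over the 4 surface and the 5 endosomal receptors. In unstimulated BMDMs the endosomal receptors made up 81.7, 87.4 and 84.5% of the summed level, and in LPS-stimulated BMDMs 14.96, 14.0 and 10.3%. The ranges did not overlap, and none of the other 12 samples fell inside either of them. The mean surface sum was 45.2 CPM per kb (SD 8.28, n = 3) in unstimulated, 353 (SD 42.5) in LPS-stimulated, 145 (SD 11.3) in LPS-primed and 175 (SD 30.1) in LPS-tolerant BMDMs. In the same order the endosomal sum was 251 (SD 52.0), 54.3 (SD 17.2), 166 (SD 42.8) and 186 (SD 40.5). Against unstimulated BMDMs its means were lower where those of the surface sum were higher. The endosomal sums of LPS-primed (117.5 to 197.2) and LPS-tolerant samples (141.4 to 220.2) overlapped with those of the unstimulated samples (193.5 to 295.3), however. From LPS-primed to LPS-tolerant BMDMs the means of both sums rose. The endosomal share was 52.9% (SD 7.27) in LPS-primed and 51.3% (SD 5.91) in LPS-tolerant BMDMs. With carboplatin it was 52.2% (SD 8.34) and 49.1% (SD 9.69). These shares depend on the gene lengths used: with the length of the canonical transcript in place of all merged exons, they were 79.0% in unstimulated, 8.37% in LPS-stimulated, 42.1% in LPS-primed and 39.4% in LPS-tolerant BMDMs.

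**Figure D1:**
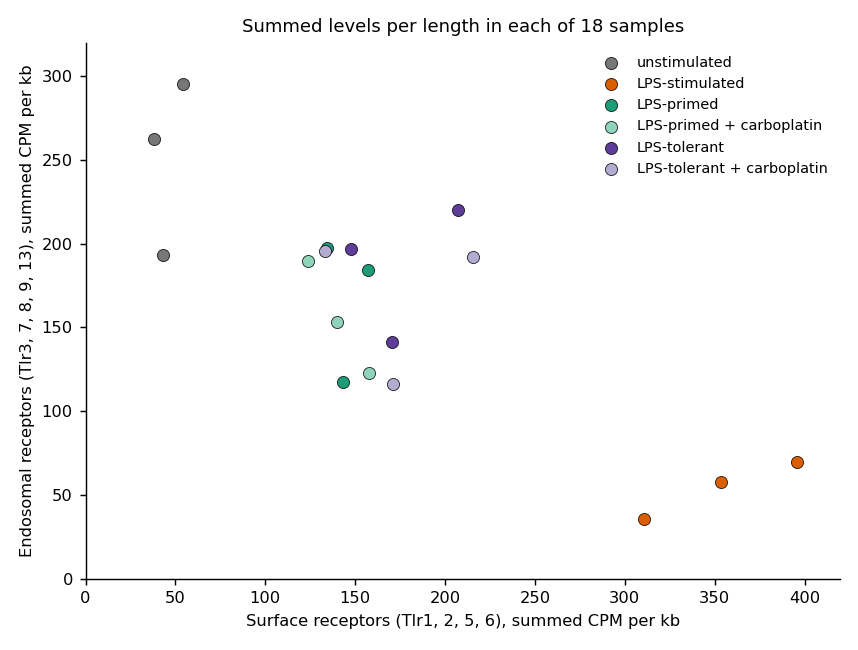
Summed level per length, in CPM per kb of merged exons, of the surface receptors (x axis) and the endosomal receptors (y axis) in each of 18 samples, coloured by group. The 3 unstimulated samples lie at surface sums of 38.0 to 54.2 and endosomal sums of 193 to 295, the 3 LPS-stimulated samples at 311 to 396 and 35.7 to 69.6, and the 12 samples that received 100 ng/ml LPS have surface sums of 124 to 215, between those of both groups, and endosomal sums of 116 to 220.

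Within these sums a few genes carried most of the level. In unstimulated BMDMs, Tlr13 (85.4 CPM per kb, SD 14.5), Tlr7 (81.6, SD 18.6) and Tlr8 (64.8, SD 25.1) had the highest levels, and their ranges overlapped. Tlr2 was at 26.3 (SD 7.89), Tlr9 at 13.6 (SD 5.78) and Tlr1 at 13.6 (SD 0.883). Tlr3 (5.06, SD 1.61) and Tlr6 (4.95, SD 0.496) were lower still. Tlr5, the flagellin receptor, was barely detected, with 1 to 31 counts in each of the 18 samples. After the 10 ng/ml dose Tlr2 alone stood at 320 CPM per kb (SD 44.2), above every other receptor in every LPS-stimulated sample, and the next was Tlr1 at 29.5 (SD 4.23).

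**Figure D2:**
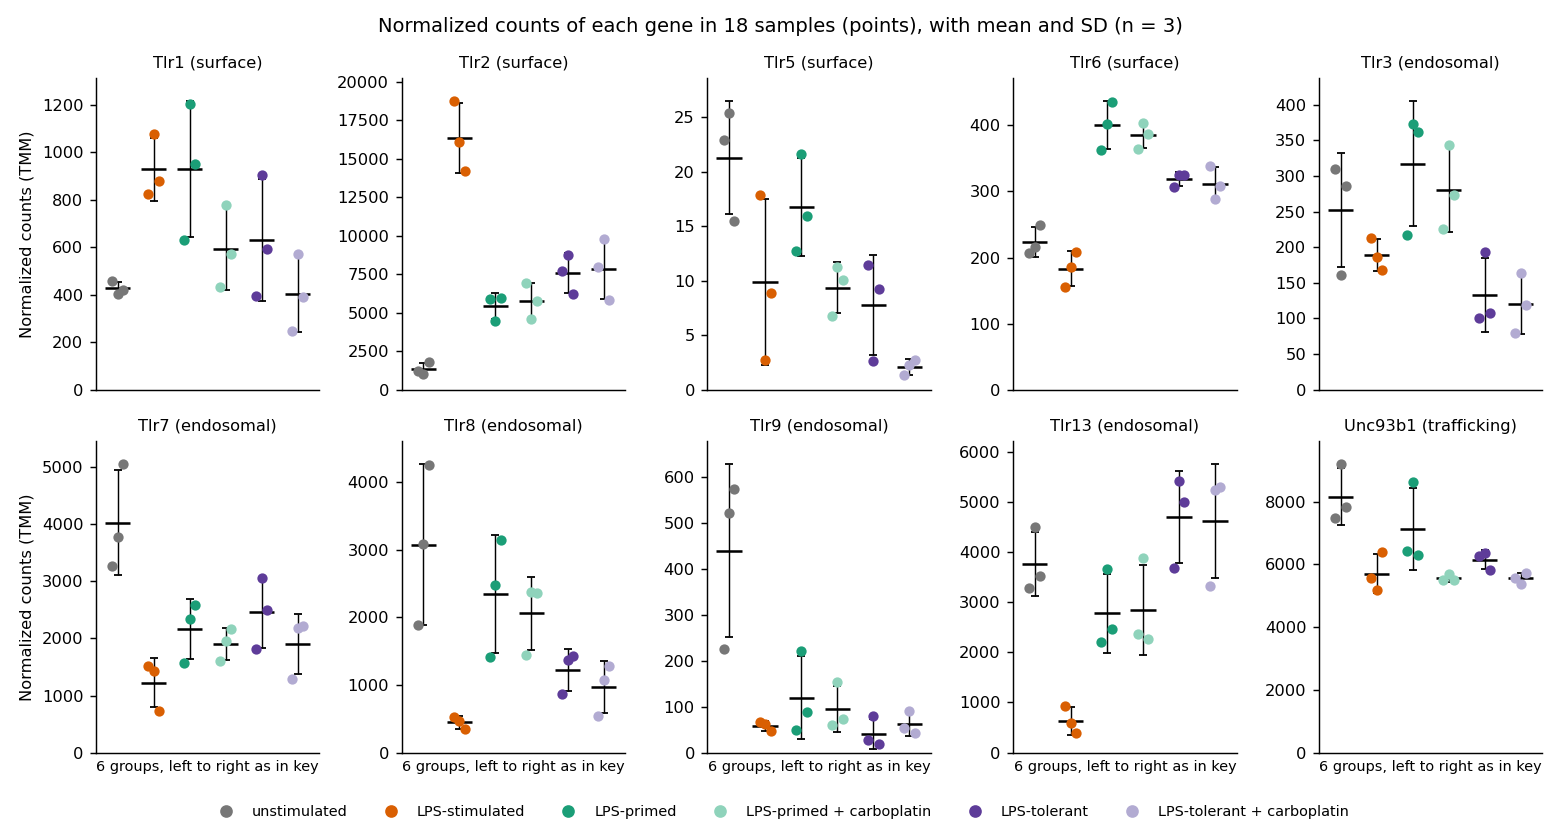
Normalized counts (y axis, linear, from 0) of the 10 genes in the 6 groups. Points are the 3 replicates of a group in the order of their numbers, horizontal bars are means and error bars are SD; each panel has its own scale. Tlr2 is lowest in the unstimulated and highest in the LPS-stimulated samples, while Tlr8 and Tlr13 are lowest in the LPS-stimulated samples.

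The comparison of LPS-stimulated with unstimulated BMDMs shows the response to 10 ng/ml LPS in cells that had not met it before. Of the 10 genes, 7 passed an adjusted p of 0.05 in edgeR's quasi-likelihood test, against 51.2% of all 11305 genes tested. Both of those that were higher encode surface receptors, and 4 of the 5 that were lower encode endosomal receptors. Of all genes 24.3% were called higher and 26.9% lower. The groups did not overlap for 7 of the 10 genes, against 55.7% of all genes. With the added limit of an absolute log2FC over 2 that the study used, Tlr2 was the 1 gene called higher (6.42% of all genes) and Tlr8, Tlr9 and Tlr13 were the 3 called lower (5.54%). With the replicate block and no fold limit, 2 were higher (29.5% of all genes) and 5 lower (33.8%).

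Among the surface receptors, Tlr2 had 1222, 1020 and 1799 normalized counts in the unstimulated samples and 18730, 16110 and 14230 in the LPS-stimulated samples. The groups were far apart, and Tlr2 rose by a log2FC of 3.60 (SE 0.25, adjusted p = 7.59e-09, edgeR). Tlr1, a partner of TLR2 for triacylated lipopeptides, had 457.9, 404.1 and 419 normalized counts before and 825.7, 1079 and 880.4 after LPS. It rose in all 3 pairs of same-numbered samples, without overlap (log2FC 1.12, SE 0.32, adjusted p = 0.00726). Tlr6, the partner of TLR2 for diacylated lipopeptides, had 206.5, 215.6 and 249 normalized counts before and 155.1, 186.1 and 208 after (log2FC -0.29, SE 0.14, adjusted p = 0.107). Its ranges overlapped and it was not called. Tlr5 had 24, 31 and 17 raw counts before and 15, 4 and 9 after (adjusted p = 0.0894), and it was called without replicate 1 of the LPS-stimulated group.

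Among the endosomal receptors, Tlr13, which recognises bacterial ribosomal RNA in mice, had 3284, 4493 and 3518 normalized counts in unstimulated BMDMs. After 10 ng/ml LPS it had 936.6, 583.2 and 386.5, and every LPS-stimulated sample was below every unstimulated one (log2FC -2.57, SE 0.32, adjusted p = 4.41e-06). Tlr8 had 1882, 3081 and 4258 normalized counts before and 528.6, 468.4 and 348 after. It fell without overlap of the groups (log2FC -2.78, SE 0.38, adjusted p = 1.21e-05). Tlr7, which lies beside Tlr8 on the X chromosome and recognises RNA rich in guanosine and uridine, had 3263, 3769 and 5047 normalized counts before and 1525, 1423 and 728.6 after. It also fell (log2FC -1.72, SE 0.29, adjusted p = 0.00012).

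Tlr9, the receptor for unmethylated CpG DNA, had 225.6, 520.4 and 572.6 normalized counts in the unstimulated samples. Replicate 1 was under the other replicates, yet all 3 were above the 66.82, 61.58 and 46.34 of the LPS-stimulated samples (log2FC -2.91, SE 0.58, adjusted p = 0.000483). Ighm was lower after LPS too, with 58, 305 and 275 raw counts in LPS-stimulated and 2, 0 and 1 in LPS-primed BMDMs. Tlr9 had 48.68, 221 and 89.09 normalized counts in LPS-primed BMDMs, which overlapped with the LPS-stimulated samples. These groups were not compared by a test. The summed B cell markers ranged from 28.7 to 168 CPM in unstimulated and from 7.69 to 29.1 in LPS-stimulated BMDMs. Of the same list Cd79b had 11, 8 and 17 raw counts and then 2, 6 and 0, and Pax5 and Ebf1 were at 0 in both groups. The summed markers of plasmacytoid dendritic cells, nearly all of it Tcf4, ranged from 41.3 to 85.2 CPM and from 29.7 to 59.4. Of these, Ccr9 had 0 counts in the unstimulated samples and 6, 13 and 10 in the LPS-stimulated ones, and Ly6d and Spib were at 0. Both cell types are known to express Tlr9, and their part in its values was not tested.

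Tlr3, the receptor for duplex RNA, was the endosomal receptor that was not called. It had 309.7, 160.6 and 285.4 normalized counts before and 212.4, 186.8 and 167.6 after (log2FC -0.41, SE 0.31, adjusted p = 0.282), and replicate 2 went up. Unc93b1 had 7466, 9184 and 7820 normalized counts before and 5559, 5178 and 6387 after. It fell (log2FC -0.52, SE 0.14, adjusted p = 0.00444), and the groups did not overlap.

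**Figure D3:**
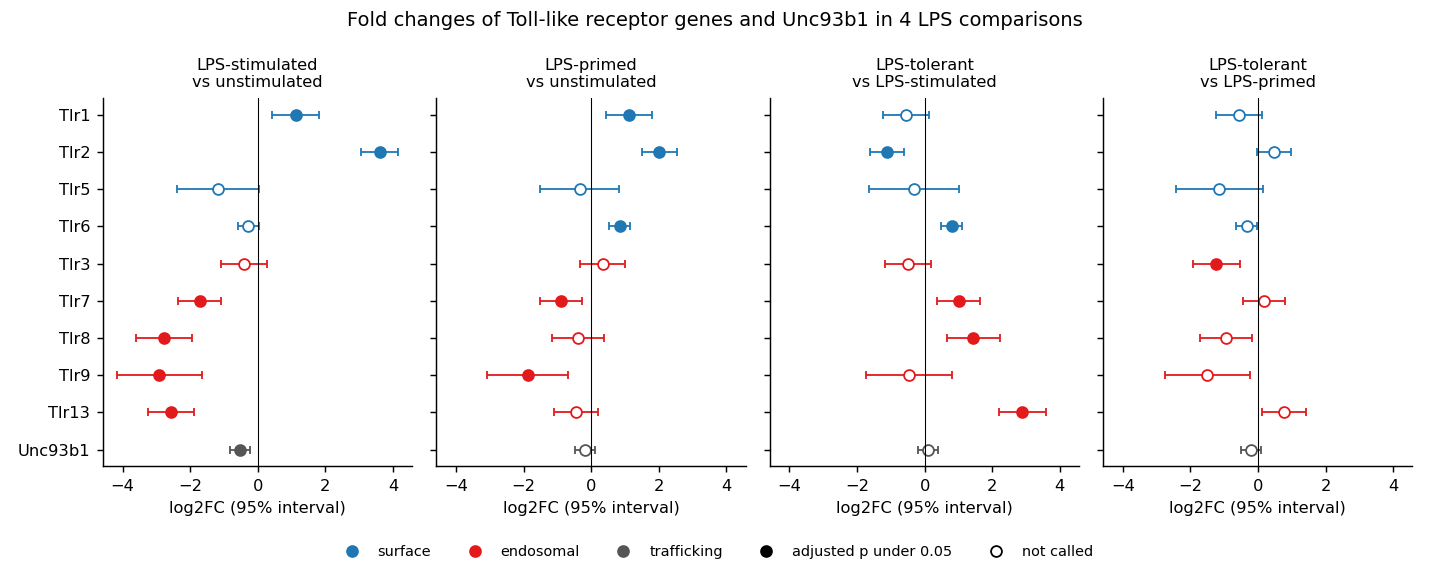
The log2FC (x axis) of the 10 genes in 4 LPS comparisons, with 95% intervals from the fit; filled points have an adjusted p under 0.05 in edgeR. In the leftmost panel Tlr1 and Tlr2 lie right of 0 and Tlr7, Tlr8, Tlr9, Tlr13 and Unc93b1 lie left of it. In the rightmost panel Tlr3 is the only filled point.

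The 250 bases upstream of the annotated start of the canonical transcript are shown for the 4 genes that passed a log2FC of 2 in this comparison, because 1 of them rose and 3 fell. They were read from the GRCm39 genome and are written in the direction of transcription, 5′ to 3′, ending at the base before the start. Capitals mark matches to 3 short patterns searched on both strands. These were the short form of the NF-κB (κB) site, with 4 free bases between GGGA and CC, the STAT (GAS) site TTCNNNGAA and the PU.1 site GAGGAAG. The interferon-stimulated response element (ISRE), written as GAAA, 2 free bases and GAAA, was searched as well.

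Tlr2, chr3:83749075-83749324, minus strand: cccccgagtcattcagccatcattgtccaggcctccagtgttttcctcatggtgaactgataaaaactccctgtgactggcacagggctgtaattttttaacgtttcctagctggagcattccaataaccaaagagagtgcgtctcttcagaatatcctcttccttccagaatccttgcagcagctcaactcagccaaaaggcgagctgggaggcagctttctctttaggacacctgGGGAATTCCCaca
Tlr8, chrX:166047283-166047532, minus strand: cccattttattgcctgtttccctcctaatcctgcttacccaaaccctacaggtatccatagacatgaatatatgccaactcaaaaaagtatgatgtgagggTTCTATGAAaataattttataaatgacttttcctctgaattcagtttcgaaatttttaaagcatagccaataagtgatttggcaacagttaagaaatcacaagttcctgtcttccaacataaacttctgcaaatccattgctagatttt
Tlr9, chr9:106099547-106099796, plus strand: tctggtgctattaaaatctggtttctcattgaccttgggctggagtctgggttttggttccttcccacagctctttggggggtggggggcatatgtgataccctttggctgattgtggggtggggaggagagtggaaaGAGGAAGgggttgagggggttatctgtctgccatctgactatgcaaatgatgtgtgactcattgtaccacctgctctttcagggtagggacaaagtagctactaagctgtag
Tlr13, chrX:105186561-105186810, plus strand: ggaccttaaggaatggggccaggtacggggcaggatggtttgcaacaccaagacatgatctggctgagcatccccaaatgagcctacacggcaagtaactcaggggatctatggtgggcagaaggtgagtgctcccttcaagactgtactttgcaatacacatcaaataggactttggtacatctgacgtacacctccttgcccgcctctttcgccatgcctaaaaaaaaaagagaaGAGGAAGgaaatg

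In Tlr2 the NF-κB pattern matched from 13 to 4 bases before the start, as GGGAATTCCC, a palindrome that counts on both strands. This pattern was found in 18.2% of the 21751 promoters of protein-coding genes and in 3 of the 10 described here, those of Tlr2, Tlr5 and Tlr3. In Tlr8 the GAS pattern matched from 149 to 141 bases before the start, as TTCTATGAA. It was found in 7.69% of all promoters and in 1 of the 10. In the GAS case, too, both strands match at the same bases. The PU.1 pattern matched in Tlr9, from 112 to 106 bases before the start, and in Tlr13, from 13 to 7 bases. It was in 10.3% of all promoters and in these 2 of the 10. The ISRE pattern was in 3.32% of all promoters and in 0 of the 10 windows. These are matches of letters, and binding was not measured.

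The comparison of LPS-primed with unstimulated BMDMs shows the family after 24 h at 100 ng/ml. Of the 10 genes 5 were called, against 25.2% of all genes. Those higher were 3 surface receptors (12.1% of all genes were called higher) and those lower were 2 endosomal receptors (13.1%). With the replicate block the counts were again 3 higher (18.9% of all genes) and 2 lower (19.8%). The groups did not overlap for 5 of the 10 genes, against 39.4% of all genes. This comparison uses the same unstimulated samples as the one above.

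Tlr2 had 5882, 4457 and 5973 normalized counts in LPS-primed BMDMs, between the unstimulated and the LPS-stimulated samples (log2FC 2.01 against unstimulated, SE 0.24, adjusted p = 7.59e-06). Tlr6 had 363, 402.2 and 435.1 normalized counts and was above all unstimulated samples (log2FC 0.84, SE 0.14, adjusted p = 0.000309). Tlr1 was spread widely, with 631.8, 1202 and 952.7 normalized counts (log2FC 1.12, SE 0.32, adjusted p = 0.0145), and the call was lost without replicate 2 of the LPS-primed group (log2FC 0.90 at the lowest among the fits that left out 1 sample). With the replicate block Tlr1 stayed called (log2FC 1.04, SE 0.19, adjusted p = 0.000266, edgeR). All 3 LPS-primed samples were above all unstimulated samples for each of Tlr1, Tlr2 and Tlr6.

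Of the endosomal receptors, Tlr7 had 1567, 2332 and 2588 normalized counts in LPS-primed BMDMs (log2FC -0.90, SE 0.29, adjusted p = 0.0283). Tlr9 had 48.68, 221 and 89.09 (log2FC -1.88, SE 0.55, adjusted p = 0.0173), and its replicate 2 almost reached the lowest unstimulated sample. The summed B cell markers were at most 1.36 CPM in the LPS-primed group. Each of the calls of Tlr7 and Tlr9 was lost in 4 of the 6 fits that left out 1 sample: for Tlr7 without replicate 2 or 3 of the unstimulated group or replicate 1 or 2 of the LPS-primed group, and for Tlr9 without unstimulated replicate 2 or 3 or LPS-primed replicate 1 or 3. Over these fits the log2FC ranged from -1.04 to -0.69 for Tlr7 and from -2.67 to -1.51 for Tlr9. They did not use the replicate block. With the block and all samples, Tlr7 (log2FC -0.91, SE 0.24, adjusted p = 0.00553, edgeR) and Tlr9 (log2FC -2.04, SE 0.35, adjusted p = 0.00014) stayed called. Tlr8 had 1418, 2483 and 3148 normalized counts (log2FC -0.39, adjusted p = 0.476) and Tlr13 had 2201, 3670 and 2457 (log2FC -0.44, adjusted p = 0.322). For both genes the groups overlapped. Tlr3 (log2FC 0.34, adjusted p = 0.487), Tlr5 (log2FC -0.35, adjusted p = 0.696) and Unc93b1 (log2FC -0.20, adjusted p = 0.329) were not called either.

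The comparison of LPS-tolerant with LPS-stimulated BMDMs sets the same 10 ng/ml dose with priming beside that dose without it. Of the 10 genes 5 were called, against 34.5% of all genes. Of the 5, 4 were higher in LPS-tolerant BMDMs, the endosomal receptors Tlr7, Tlr8 and Tlr13 and the surface receptor Tlr6 (16.2% of all genes were called higher), and Tlr2 was lower (18.3% lower).

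Tlr13 had the largest difference of the 10, with 3677, 5422 and 5003 normalized counts in LPS-tolerant BMDMs against 936.6, 583.2 and 386.5 (log2FC 2.89, SE 0.32, adjusted p = 3.19e-06). Tlr8 had 863.5, 1371 and 1424 normalized counts against 528.6, 468.4 and 348 (log2FC 1.44, SE 0.36, adjusted p = 0.0049). Tlr7 had 1822, 3060 and 2501 against 1525, 1423 and 728.6 (log2FC 1.01, SE 0.29, adjusted p = 0.0117). None of these 3 overlapped between the groups. No overlap was found for 5 of the 10 genes, against 44.2% of all genes. The call of Tlr7 was lost without LPS-tolerant replicate 2 or LPS-stimulated replicate 3 (log2FC 0.74 at the lowest). Those fits did not use the replicate block. With the block and all samples Tlr7 stayed called (log2FC 0.95, SE 0.24, adjusted p = 0.00353, edgeR). Tlr6 had 306.4, 324.7 and 324.3 normalized counts against 155.1, 186.1 and 208 (log2FC 0.80, SE 0.14, adjusted p = 0.000387). Tlr2 had 7728, 8769 and 6218 normalized counts, all below the LPS-stimulated samples (log2FC -1.11, SE 0.23, adjusted p = 0.00126) and all above the unstimulated ones. Tlr9 had 26.59, 78.59 and 18.53 normalized counts, at the level of the LPS-stimulated samples (log2FC -0.46, adjusted p = 0.582). With the replicate number as a block, Tlr1 was called lower too (log2FC -0.61, SE 0.19, adjusted p = 0.0119), which gave 4 higher (22.9% of all genes) and 2 lower (24.7%).

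The comparison of LPS-tolerant with LPS-primed BMDMs sets cells that were primed, given fresh medium and 10 ng/ml for 3 h more beside cells harvested after priming. No primed group received fresh medium without LPS, so the dose, the change of medium and the added time cannot be told apart. It shares the LPS-tolerant samples with the comparison just given. Only Tlr3 of the 10 genes was called in edgeR without the block, against 6.31% of all genes, of which 3.6% were higher and 2.71% lower. Tlr3 had 217, 373.7 and 362 normalized counts in LPS-primed and 100, 193.4 and 107.1 in LPS-tolerant BMDMs, and the groups did not overlap (log2FC -1.24, SE 0.32, adjusted p = 0.0278). The call was lost when only the 6 samples compared were fitted. It was also lost without LPS-primed replicate 2 or 3 and without LPS-tolerant replicate 1 or 3, with a log2FC from -1.62 to -1.07 over the fits that left out 1 sample.

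With the replicate block 5 genes were called in this comparison, Tlr13 higher (9.67% of all genes) and Tlr1, Tlr3, Tlr8 and Tlr9 lower (8.32%). Tlr13 was higher in LPS-tolerant BMDMs in all 3 pairs (log2FC 0.78, SE 0.25, adjusted p = 0.0358 with the block and 0.15 without it). Tlr8 was lower in all 3 pairs (log2FC -0.92, SE 0.23, adjusted p = 0.0101 with the block and 0.129 without it). Tlr9 (log2FC -1.48, SE 0.39, adjusted p = 0.0135) and Tlr1 (log2FC -0.57, SE 0.19, adjusted p = 0.0403) were likewise lower in all 3 pairs, and without the block their adjusted p values were 0.143 and 0.339. Tlr3 stayed called (adjusted p = 0.00619). Tlr7 had a log2FC of 0.19 (SE 0.28, 95% interval -0.43 to 0.81) and Tlr2 of 0.48 (SE 0.23, -0.02 to 0.98), and neither was called with or without the block. Tlr6 had 363, 402.2 and 435.1 normalized counts in LPS-primed and 306.4, 324.7 and 324.3 in LPS-tolerant BMDMs, without overlap, yet it was not called (log2FC -0.33, SE 0.14, adjusted p = 0.19, or 0.0736 in the blocked fit). In this comparison the groups did not overlap for 5 of the 10 genes, against 26.2% of all genes.

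The changes with 10 ng/ml LPS in naive and in primed cells come from separate samples. Primed cells also had a change of medium, and whether naive cells had one was not given in the sources used here. The difference between both log2FC values was tested as a contrast of these 4 groups, and 5 of the 10 genes passed, against 23.8% of all genes. In primed cells the change was more positive for Tlr7, Tlr8 and Tlr13 (10.5% of all genes) and more negative for Tlr1 and Tlr2 (13.3%). For Tlr13 the log2FC was -2.57 in naive and 0.76 in primed cells, a difference of 3.33 (SE 0.43, adjusted p = 2.48e-05, edgeR). For Tlr2 it was 3.60 and 0.48, a difference of -3.12 (SE 0.33, adjusted p = 2.82e-06). Tlr7 differed by 1.90 (SE 0.41, adjusted p = 0.00236), Tlr8 by 1.83 (SE 0.50, adjusted p = 0.0132) and Tlr1 by -1.67 (SE 0.45, adjusted p = 0.011). Tlr8 kept a negative log2FC in primed cells, -0.95, where Tlr13 and Tlr7 had positive ones. Tlr9 (difference 1.42, 95% interval -0.32 to 3.16), Tlr3 (-0.83, -1.80 to 0.14), Unc93b1 (0.30, -0.11 to 0.72), Tlr6 (-0.04, -0.48 to 0.40) and Tlr5 (0.03, -1.88 to 1.95) were not called. With the replicate block Tlr9 passed too (difference 1.41, SE 0.53, adjusted p = 0.0467, edgeR). That gave 4 genes more positive (17.2% of all genes) and 2 more negative (19%). In these 4 groups same-numbered samples correlated at 0.307 on average and at 0.0631 at the lowest.

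**Figure D4:**
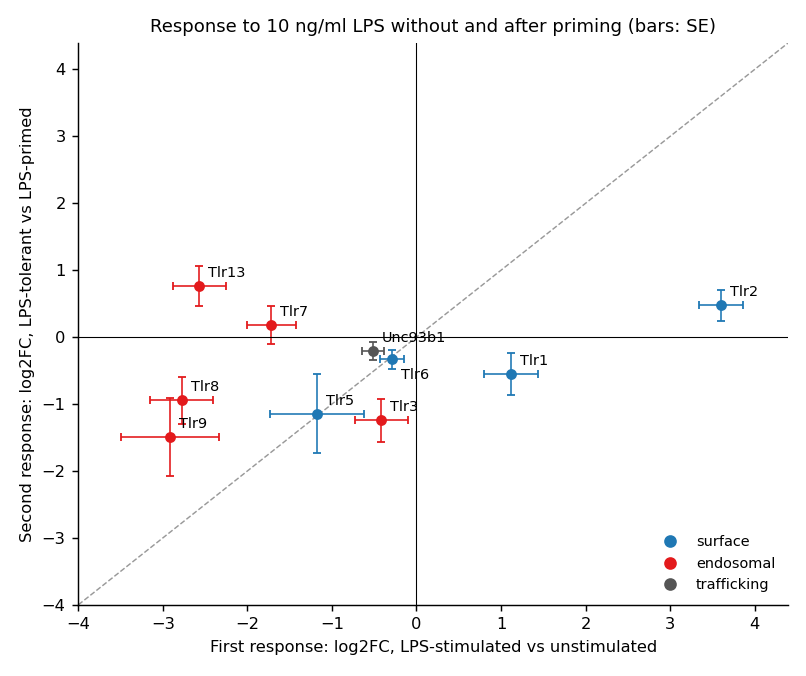
The log2FC after 10 ng/ml LPS in naive BMDMs (x axis, LPS-stimulated against unstimulated) and in primed BMDMs (y axis, LPS-tolerant against LPS-primed), with SE bars; the dashed line marks equal responses. Tlr2, Tlr1 and Tlr3 lie below the line, and Tlr13, Tlr7, Tlr8 and Tlr9 lie above it.

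Carboplatin was compared with no drug within LPS-primed and within LPS-tolerant BMDMs. In both states 0 of the 10 genes were called in edgeR, where 0.372% of all genes were called in LPS-primed and 0.425% in LPS-tolerant BMDMs. At the adjusted p of 0.25 that the study used for the drug, the count without the block was again 0, against 1.2% and 1.65% of all genes. With the replicate block and the 0.25 limit together, a setting chosen after seeing the data, Tlr1 (adjusted p = 0.1, edgeR) and Unc93b1 (0.171) were lower in LPS-primed BMDMs (5.17% of all genes) and Tlr1 (0.106) in LPS-tolerant BMDMs (4.61%), each in all 3 pairs. None of them passed the fold limit of the study. DESeq2 called 0 at 0.05 in both states, as did edgeR with the block. At an unadjusted p of 0.05, 1 gene passed in each state, against 6.86% and 6.73% of all genes.

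In LPS-primed BMDMs that gene was Unc93b1, with 6424, 8624 and 6309 normalized counts without and 5499, 5707 and 5496 with carboplatin (log2FC -0.35, SE 0.14, adjusted p = 0.514). Its groups did not overlap, and no overlap was found for 2 of the 10 genes, against 12.9% of all genes. In LPS-tolerant BMDMs Unc93b1 had a log2FC of -0.15 (95% interval -0.44 to 0.15). The gene in LPS-tolerant BMDMs was Tlr5, with 9, 3 and 9 raw counts without and 1, 2 and 3 with the drug (adjusted p = 0.677), so that the treated samples were at or under a floor of 3 counts. Tlr1 had log2FC values of -0.64 (95% interval -1.33 to 0.04) in LPS-primed and -0.65 (-1.34 to 0.04) in LPS-tolerant BMDMs and was lower in all 3 pairs of each. For Tlr2 the 95% intervals were -0.41 to 0.59 and -0.45 to 0.55, for Tlr6 -0.37 to 0.25 and -0.34 to 0.28, and for Tlr13 -0.62 to 0.68 and -0.67 to 0.62. For these 3 genes, changes of over 2-fold in either direction lay outside the intervals. For Tlr9 they were -1.51 to 0.90 and -0.73 to 1.85, so that changes of that size lay inside them. The drug effect did not differ between the states for any of the 10 genes at the adjusted p used (0% of all genes were called, and 1.16% had an unadjusted p under 0.05, none of them among the 10).

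**Figure D5:**
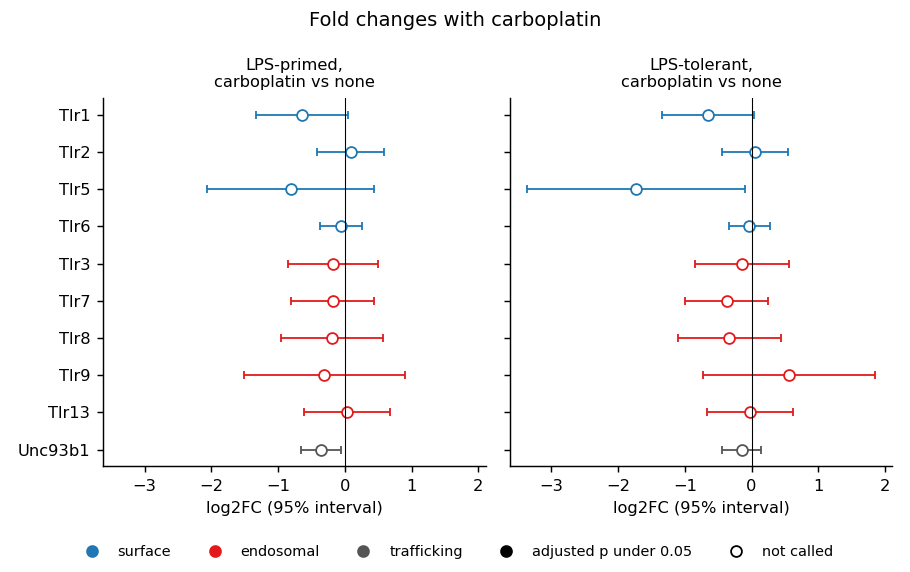
The log2FC with carboplatin (x axis, 95% intervals) of the 10 genes in LPS-primed and LPS-tolerant BMDMs. All points are open, which means that none was called, and the intervals are narrowest for Tlr6 and Unc93b1 and widest for Tlr5 and Tlr9.

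Across the 6 groups the order of the mean normalized counts differed between members. Tlr2 ran from LPS-stimulated (16360) through both LPS-tolerant groups (7850 with and 7571 without carboplatin) and both LPS-primed groups (5782 and 5438) to unstimulated (1347), and only the steps below the first and above the last group were free of overlap. Tlr13 was highest in LPS-tolerant (4701) and lowest in LPS-stimulated BMDMs (635.4), and among the other groups neighbours overlapped. Tlr6 fell into 3 levels, with LPS-primed (400.1) and LPS-primed with carboplatin (384.8) above LPS-tolerant (318.5) and LPS-tolerant with carboplatin (311.7), and these above unstimulated (223.7) and LPS-stimulated BMDMs (183.1). No sample of a Tlr6 level overlapped with the next level. The step from LPS-primed to LPS-tolerant BMDMs was not called, however (adjusted p = 0.19, or 0.0736 in the blocked fit, edgeR). In that comparison 26.2% of all genes were free of overlap. Tlr7 and Tlr9 were highest in unstimulated BMDMs (4026 and 439.5), without overlap with the next group. Tlr8 ran from unstimulated (3074) through LPS-primed (2350), LPS-primed with carboplatin (2060), LPS-tolerant (1219) and LPS-tolerant with carboplatin (967.7) to LPS-stimulated BMDMs (448.3). Of its neighbours only LPS-primed with carboplatin and LPS-tolerant, and the last pair, were free of overlap, while LPS-primed and LPS-tolerant BMDMs overlapped. Tlr3 was highest in LPS-primed BMDMs (317.5) and lowest in both LPS-tolerant groups (133.5 and 120.8), with every neighbour overlapping. For Tlr1 all neighbours in the order overlapped too.

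The genes with the most similar profiles were found by Pearson's r of log2 CPM over the 18 samples, which share libraries and groups, so these values are descriptions only. For Tlr2 they were Maff (r = 0.969), a small Maf transcription factor, and Adora2a (0.962), an adenosine receptor. For Tlr13 they were Lonrf3 (0.972) and Arhgap27 (0.970), and for Tlr8 Ncoa1 (0.973), a nuclear receptor coactivator, and Vps13c (0.972). For Tlr6, Pygl (0.947), liver glycogen phosphorylase, was among the closest. Tlr3 was closest to Ddx58 (0.902), which encodes the cytosolic RNA sensor RIG-I, and Gvin3 (0.896). Tlr7 was closest to Fgd4 (0.930) and Kif13b (0.924), Tlr9 to Hfe (0.927) and Snx5 (0.910), and Unc93b1 to Ttc7 (0.920) and Cenpo (0.892). Tlr1 had weaker matches, Trim30d (0.872) and Slc13a3 (0.830), as did Tlr5, B3gnt3 (0.862) and Bcs1l (0.842).

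Among the genes whose products fold and carry these receptors, 11 of 11 were tested. After 10 ng/ml LPS, 1 was called higher and 4 lower (median log2FC of the list 0.11, of all genes -0.09), where 24.3% of all genes were higher and 26.9% lower. With the replicate block 3 were higher (29.5% of all genes) and 4 lower (33.8%). Lrrc59, an endoplasmic reticulum protein that binds UNC93B1-dependent receptors, rose (log2FC 1.79, SE 0.16, adjusted p = 1.09e-07). Rab7b, a small GTPase of late endosomes, fell (log2FC -2.56, SE 0.27, adjusted p = 6.93e-07), and its change was 3.38 more positive in primed cells (SE 0.37, adjusted p = 3.51e-06). Slc15a4, a lysosomal transporter needed for TLR7 and TLR9 signaling, was lower in LPS-primed than in unstimulated BMDMs (log2FC -1.70, SE 0.22, adjusted p = 1.52e-05). In LPS-tolerant against LPS-stimulated BMDMs 4 were higher and 2 lower (16.2% and 18.3% of all genes), among them Tasl, the adaptor of SLC15A4, which was lower (log2FC -1.25, SE 0.30, adjusted p = 0.00393). Against LPS-primed BMDMs 0 of the 11 were called (6.31% of all genes), while 3 were higher and 1 lower in the blocked fit (9.67% and 8.32%).

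Of 12 genes for nucleases, lysosomal proteases and a nucleoside transporter of endosomes, 11 were tested. After 10 ng/ml LPS 0 were higher and 4 lower, or 1 and 5 with the block (median log2FC -0.29). Of all genes 24.3% were higher and 26.9% lower, or 29.5% and 33.8% with the block. Those lower included Slc29a3, the lysosomal nucleoside transporter (log2FC -1.49, SE 0.37, adjusted p = 0.00311), and Ctsk, a cathepsin (log2FC -0.79, SE 0.31, adjusted p = 0.0437). Ctsl, a cathepsin that cleaves endosomal receptors, was higher in LPS-primed than in unstimulated BMDMs (log2FC 1.70, SE 0.34, adjusted p = 0.00116), while Pld4, a lysosomal exonuclease, was lower (log2FC -0.75, SE 0.21, adjusted p = 0.0132). In that comparison 1 was higher and 2 lower without the block (12.1% and 13.1% of all genes), and 2 were higher and 6 lower with it (18.9% and 19.8%). In LPS-tolerant against LPS-stimulated BMDMs 3 were higher and 0 lower (16.2% and 18.3% of all genes), with Ctsl (log2FC 1.77, SE 0.34, adjusted p = 0.000611) and Ctsk (log2FC 1.53, SE 0.31, adjusted p = 0.00107) the largest. The block gave 5 higher and 2 lower (22.9% and 24.7% of all genes).

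Of 7 co-receptor genes, 5 were tested, and after 10 ng/ml LPS 2 were higher and 0 lower (median log2FC 0.47, with 24.3% and 26.9% of all genes called), or 2 higher and 2 lower with the block (29.5% and 33.8%). Cd14, which hands LPS and lipopeptides to TLR4 and TLR2, rose by a log2FC of 3.64 after 10 ng/ml LPS (SE 0.54, adjusted p = 3.34e-05) and of 2.53 after priming (SE 0.52, adjusted p = 0.00149). Cd180, a receptor homologue, was lower in LPS-primed BMDMs (log2FC -2.04, SE 0.45, adjusted p = 0.00243). Cd36, a scavenger receptor that works with TLR2 and TLR6, was higher in LPS-tolerant BMDMs than after the single dose (log2FC 1.24, SE 0.28, adjusted p = 0.00259), and Ly86, the partner of CD180, was lower (log2FC -0.89, SE 0.29, adjusted p = 0.0263). Against LPS-primed BMDMs 0 of the 5 were called (6.31% of all genes), and 1 was higher with the block (9.67%).

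Of 25 genes for adaptors, kinases and transcription factors of the pathway, 24 were tested, and after 10 ng/ml LPS 11 were higher and 4 lower (median log2FC 0.53), against 24.3% and 26.9% of all genes. With the block 13 were higher and 4 lower (29.5% and 33.8%). Ikbke, an inducible IκB kinase (log2FC 2.32, SE 0.19, adjusted p = 4.33e-08), and Tab2, which links TRAF6 to TAK1 (log2FC 1.91, SE 0.24, adjusted p = 4.21e-06), had the largest changes. After priming 7 were higher and 1 lower (12.1% and 13.1% of all genes), or 10 and 2 with the block (18.9% and 19.8%). Irak3, the inhibitory member of the IRAK family, rose by a log2FC of 3.37 (SE 0.19, adjusted p = 1.7e-09), and Irf7, the interferon regulator downstream of TLR7 and TLR9, by 1.85 (SE 0.53, adjusted p = 0.0163). In LPS-tolerant against LPS-primed BMDMs Ticam2, a TRIF-related adaptor, was lower (log2FC -2.02, SE 0.36, adjusted p = 0.00263) and Irak2, a kinase of the MyD88 complex, was higher (log2FC 0.97, SE 0.17, adjusted p = 0.00257). In the contrast of the naive and primed responses 1 of the 24 was more positive in primed cells and 8 were more negative (10.5% and 13.3% of all genes), led by Ikbke (difference -1.996, SE 0.26, adjusted p = 2.46e-05) and Tab2 (-1.83, SE 0.32, adjusted p = 0.00048). With the block 3 were more positive and 10 more negative (17.2% and 19% of all genes).

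The cytosolic nucleic acid sensors, which read nucleic acids outside endosomes, were listed for comparison, and 11 of the 12 symbols were tested. The missing symbol, Rigi, is the current name of Ddx58. After 10 ng/ml LPS 4 were higher and 3 lower (median log2FC 0.63; 24.3% and 26.9% of all genes), with Ifi203 (log2FC 3.17, SE 0.44, adjusted p = 1.48e-05) and Ifih1, the sensor MDA5 (log2FC 1.52, SE 0.34, adjusted p = 0.00135), the largest. With the block 5 were higher and 3 lower after that dose (29.5% and 33.8% of all genes). In LPS-tolerant against LPS-stimulated BMDMs 0 were higher and 7 lower (median log2FC -1.003), against 16.2% and 18.3% of all genes. The block gave the same counts there (22.9% and 24.7%). In LPS-tolerant against LPS-primed BMDMs Ddx58 (log2FC -1.16, SE 0.28, adjusted p = 0.0204) and Sting1, the adaptor of DNA sensing (log2FC -1.07, SE 0.18, adjusted p = 0.00171), were lower. These were the 2 called genes of the list (2.71% of all genes were lower), and 3 were lower with the block (8.32%). With carboplatin 0 genes of these 5 lists were called in either state, and 1 folding and trafficking gene was lower in LPS-tolerant BMDMs with the block (1.43% of all genes).

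The other Toll-like receptors of the mouse were read for orientation. Tlr4 had a mean of 1084 normalized counts (SD 307) in unstimulated and 618 (SD 165) in LPS-stimulated BMDMs, its only called change among the 6 comparisons of groups without the block (log2FC -0.81, SE 0.28, adjusted p = 0.0231). With the block it was lower in LPS-tolerant than in LPS-primed BMDMs as well (adjusted p = 0.0154). Tlr11 had at most 2 counts in any sample and Tlr12 had 0 counts in all 18, so neither was tested.

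Tlr1 and Tlr6 are neighbours on chromosome 5, with 17762 bases between their gene models, and their coding sequences share a run of 229 identical bases. The run is shown because read pairs that lie wholly inside it cannot be assigned to either gene.

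Tlr1, chr5:65082880-65083108, and Tlr6, chr5:65111171-65111399, both minus strand, GRCm39: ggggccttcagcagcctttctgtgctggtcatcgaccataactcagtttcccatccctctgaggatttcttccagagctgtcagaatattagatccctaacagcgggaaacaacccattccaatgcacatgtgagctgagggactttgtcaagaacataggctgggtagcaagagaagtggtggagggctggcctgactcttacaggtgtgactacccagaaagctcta

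It is 7.52% of the 3046-base Tlr1 transcript and 5.27% of the 4347-base Tlr6 transcript. The next longest run shared between any of these genes or with Tlr4 was 18 bases. The values of Tlr1 and Tlr6 are therefore uncertain by the reads lost there. Their r over the 18 samples was -0.02, which does not show how many reads were lost. The Tlr6 gene model also overlaps Fam114a1 on the opposite strand over 72911 bases. The library kit marks strand, but the strand option of the counting was not given in the sources used here.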

How the data were processed

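RNA-Seq counts of 18 samples were used. The authors aligned paired-end reads of stranded mRNA libraries to GRCm39 with HISAT2, counted them per gene with HTSeq, and deposited raw counts; program versions, annotation and strand option were not given in the sources used here. Rows naming no gene (41.5 to 46.9% of the pairs per sample) were left out. No samples were identical.

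Differential expression was tested with edgeR 4.0.16 (R 4.3.3), using TMM normalization, the default filter (minimum count 10, total 15), 1 quasi-likelihood model over the 18 samples and Benjamini-Hochberg adjustment over 11305 genes. Genes were called at an adjusted p under 0.05 without a fold limit. SE was derived from the log2FC and its F statistic, and 95% intervals use 12 degrees of freedom. Normalized counts are raw counts scaled to the mean effective (TMM) library size. The fit was tested on simulated data. Lengths and starts came from GENCODE vM39.

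Same-numbered samples correlated after removal of group means, at 0.183 or more in each of the 6 comparisons of groups, so the numbers were taken to pair the samples. A fit with the replicate block was run for each, and values come from the fit without it unless the block is named. In the contrast of 4 groups the lowest pair was at 0.0631 and the mean at 0.307, and its fit with the block is reported as well.

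The members and gene lists were chosen with earlier results of these data known. Genes outside the members were named by rule: the 2 nearest profiles of each member, and in each list the 2 called genes with the largest absolute log2FC per comparison; some genes are not reported here. Alternatives were DESeq2 1.42.0, its size factors (RLE), library size alone, no filter, 10 counts in every sample, the compared groups only, the block, a prior count of 2, other adjusted p limits and leaving out each sample.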

Additional observations from a re-analysis of the deposited data

Results flagged for a closer look

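The response to 10 ng/ml LPS differed between naive and primed BMDMs for 5 of the 10 genes, against 23.8% of all genes. This was the contrast of 4 groups in edgeR without the replicate block. The difference (primed minus naive, on the log2 scale) was 3.33 for Tlr13, 1.90 for Tlr7 and 1.83 for Tlr8, and it was -3.12 for Tlr2 and -1.67 for Tlr1. With the block Tlr9 passed as well (difference 1.41, adjusted p = 0.0467, edgeR). In that fit 17.2% of all genes were more positive and 19% more negative. Naive cells had 3 h of LPS in all per the study's scheme, and primed cells had 24 h plus 3 h with a change of medium. The time in culture of the naive cells, and whether their medium was changed, was not given in the sources used here. Culture time, medium and priming therefore cannot be told apart in this contrast.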

How the results depend on the processing

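The effect of the processing was small in most comparisons. DESeq2, its size factors (RLE) in edgeR, no expression filter, a minimum of 10 counts in every sample and a prior count of 2 each kept all 16 counts of called members within 1.5 times and changed no call of a member that could be fitted. The endosomal share depended on length: with canonical transcripts, an alternative chosen after seeing the data, it was 79.0, 8.37, 42.1 and 39.4% in Unstim, LPS10, LPS100 and Tol, and 40.8 and 37.1% in LPS100_Carbo25 and Tol_Carbo25. The cause is the lengths themselves, chiefly that of Tlr2 (5499 against 3017 bases).

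With the replicate block, members called lower went from 1 to 2 (Tol against LPS10) and from 1 to 4 (Tol against LPS100), and higher from 0 to 1 in the latter. In the same order the shares of all genes went from 18.3% to 24.7%, from 2.71% to 8.32% and from 3.6% to 9.67%. The block gave Tlr9 a called difference between responses (1.41, adjusted p = 0.0467, edgeR). In those 4 groups the lowest correlation of same-numbered samples was 0.0631 and the mean 0.307. Each of the 18 samples correlated best with its own number. The block changed no other call at 0.05. Together with an adjusted p of 0.25 (added after seeing the data) it gave 2 members lower in LPS100_Carbo25 against LPS100 (5.17% of all genes). In Tol_Carbo25 against Tol it gave 1 (4.61%). Otherwise 0 were called in these comparisons. With only the groups compared, 0 were lower in Tol against LPS100. At an adjusted p of 0.25, 2 were lower in Tol against LPS10, and 2 higher and 4 lower in Tol against LPS100. At 0.01, 0 were lower in LPS100 against Unstim and in Tol against LPS100, and 1 was more negative in the difference between responses. The shares of all genes at these limits, and with only the groups compared, were not computed.

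Library size alone moved the median log2FC of all genes from -0.09 to -0.43 (LPS10 against Unstim), from -0.02 to -0.26 (LPS100 against Unstim), from -0.01 to -0.11 (Tol against LPS100) and from 0.06 to 0.30 (difference between responses). It reversed uncalled values: Tlr6 (0.028) and Tlr13 (0.038) in Tol_Carbo25 against Tol, and Tlr6 (0.20) in the difference between responses. It added 4 calls, Tlr5 and Tlr6 lower in LPS10 against Unstim, Unc93b1 lower in LPS100 against Unstim, and Unc93b1 in the difference between responses.

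Leaving out 1 sample gave 0 to 2 members lower in LPS100 against Unstim, 1 to 2 in Tol against LPS10 and 0 to 2 in Tol against LPS100, where without Tol replicate 2 Tlr9 was called as well. For the fits that left out 1 sample, the shares of all genes were not computed. Without Tol replicate 2, Tlr1 was called in Tol against LPS10. Uncalled values changed sign in these fits. The log2FC ranged from -0.81 to 0.42 for Tlr5 in Tol against LPS10 and from -0.0011 to 0.37 for Tlr7 in Tol against LPS100. In LPS100_Carbo25 against LPS100 it ranged from -0.066 to 0.23 (Tlr2), -0.12 to 0.0085 (Tlr6), -0.45 to 0.079 (Tlr8), -0.84 to 0.48 (Tlr9) and -0.26 to 0.29 (Tlr13). In Tol_Carbo25 against Tol it ranged from -0.14 to 0.23 (Tlr2), -0.093 to 0.018 (Tlr6), -0.43 to 0.23 (Tlr3) and -0.18 to 0.17 (Tlr13). In the difference between responses it ranged from -0.46 to 0.77 (Tlr5) and -0.15 to 0.056 (Tlr6). Beyond lengths, the cause of these changes was not tested. Tlr5 had 1 to 31 counts per sample, so that its values are imprecise.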
